A study of Oryza sativa with 12 samples.

Results

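Kinesin, tubulin and other microtubule transcripts were examined in young rice panicles. Members were chosen by their annotation, as every transcript whose description held the word kinesin, tubulin or microtubule. This rule was set with earlier results of these data known. The rule found 99 transcripts of 85 loci among the 40722 transcripts of 34126 loci counted. Of these, 96 transcripts of 82 loci had enough counts to be tested. The untested transcripts were 3 kinesins, Os01t0260100-01, Os01t0382450-01 and Os06t0554700-01, which had between 1 and 19 counts in every library.

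RNA was sequenced from whole young panicles at the 2-mm stage, with 3 libraries from each of 4 lines. NIL-Prl5ST-1 carries the Prl5 region of the rice ST-1 in the background of the cultivar Koshihikari, NIL-Pbl6ST-1 carries the Pbl6 region of ST-1, and NIL-Prl5ST-1+Pbl6ST-1 carries both. Koshihikari, labelled as the wild type, is the recurrent parent. Near-isogenic lines were selected with markers after repeated backcrossing, so each introduced segment holds other ST-1 genes beside the named one, and each line is 1 selection. Prl5 encodes a gibberellin 20-oxidase, OsGA20ox4, and Pbl6 is the F-box gene APO1. All 3 introgression lines share the Koshihikari background, and no agent was applied to any line.

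Microtubules are hollow polymers of alpha- and beta-tubulin dimers. They form the mitotic spindle, the phragmoplast that builds the new cell wall at division, and the cortical array along which cellulose synthase complexes move. Gamma-tubulin complexes nucleate them, folding cofactors assemble the dimers, MAP65 proteins cross-link neighbouring polymers, EB1 proteins track the growing ends, and kinesins are motors that walk along them or change their dynamics. A young panicle holds dividing meristems and elongating axes, both of which use these structures.

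By role, the tested transcripts were 43 kinesins of 39 loci, 8 alpha-tubulins of 5 loci, 12 beta-tubulins of 11 loci, 2 members of the gamma-tubulin complex, 5 proteins of tubulin folding or modification, 3 other tubulins and 23 other microtubule proteins. Transcripts of 1 locus are not independent. At 12 of the 85 loci several transcripts were listed. Their mean counts were within a ratio of 1.02 of each other at 3 of these loci, as at Os09g0528000, with means over libraries of 1158.8 and 1161.9 counts, and differed by a ratio of 1.18 to 13.06 at the others. Tubulin genes are also near-identical in sequence to one another, and how the authors' counting divided reads between them is not given in the sources used here, so values of single tubulins are uncertain.

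The libraries held between 16041196 and 31760529 counts, and members took between 1.24% and 1.43% of them. Panicle markers were present throughout, with OsMADS1, a floral identity gene, between 153 and 189 cpm (counts scaled to the effective size of each library, set by TMM) and the meristem gene OSH1 between 163 and 274 cpm. FZP and APO1 were far lower, at 2.72 to 7.39 and 0.889 to 2.23 cpm. APO1, the Pbl6 gene, was at 1.31, 1.69 and 1.22 cpm in NIL-Pbl6ST-1, against 2.23, 1.77 and 1.07 cpm in Koshihikari. In NIL-Prl5ST-1+Pbl6ST-1 it was at 1.71, 1.21 and 0.889 cpm. These libraries overlapped, so APO1 gave no check of the Pbl6 labels. Koshihikari replicate 2 and NIL-Prl5ST-1 replicate 2 stood apart from the other libraries of their lines on the first principal component of all transcripts (43% of the variance). A transcript of chromosome 5, Os05t0439200-01, had 0 counts in every library of NIL-Prl5ST-1 and NIL-Prl5ST-1+Pbl6ST-1, against 629 to 1188 counts in those of NIL-Pbl6ST-1 and Koshihikari, so both libraries matched their labels there. Results that rest on them are given with and without them. The sources do not say whether the 3 libraries of a line came from separate plants, so p-values measure only the spread between these libraries.

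Most kinesins shared a single pattern across the 12 libraries. NIL-Prl5ST-1 replicate 1 was among the 3 lowest libraries for 32 of the 43 kinesins, NIL-Prl5ST-1 replicate 3 for 30 and Koshihikari replicate 2 for 32. The lowest library of all was NIL-Prl5ST-1 replicate 3 in 16 kinesins, NIL-Prl5ST-1 replicate 1 in 13, and NIL-Pbl6ST-1 replicate 3 and Koshihikari replicate 2 in 5 each. The highest was NIL-Prl5ST-1+Pbl6ST-1 replicate 3 in 21 of them and Koshihikari replicate 3 in 8. Each kinesin's log2 cpm was centred on its mean over the 12 libraries, and the median of these values over the 43 kinesins was taken for each library. It was -0.32, -0.03 and -0.31 in NIL-Prl5ST-1, -0.05, 0.11 and 0.05 in NIL-Pbl6ST-1, 0.04, 0.16 and 0.26 in NIL-Prl5ST-1+Pbl6ST-1, and 0.15, -0.22 and 0.18 in Koshihikari. The Koshihikari libraries thus spanned most of the range of the other lines. NIL-Prl5ST-1 replicate 2 lay above the other libraries of its line and below every library of NIL-Prl5ST-1+Pbl6ST-1.

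**Figure D1:**
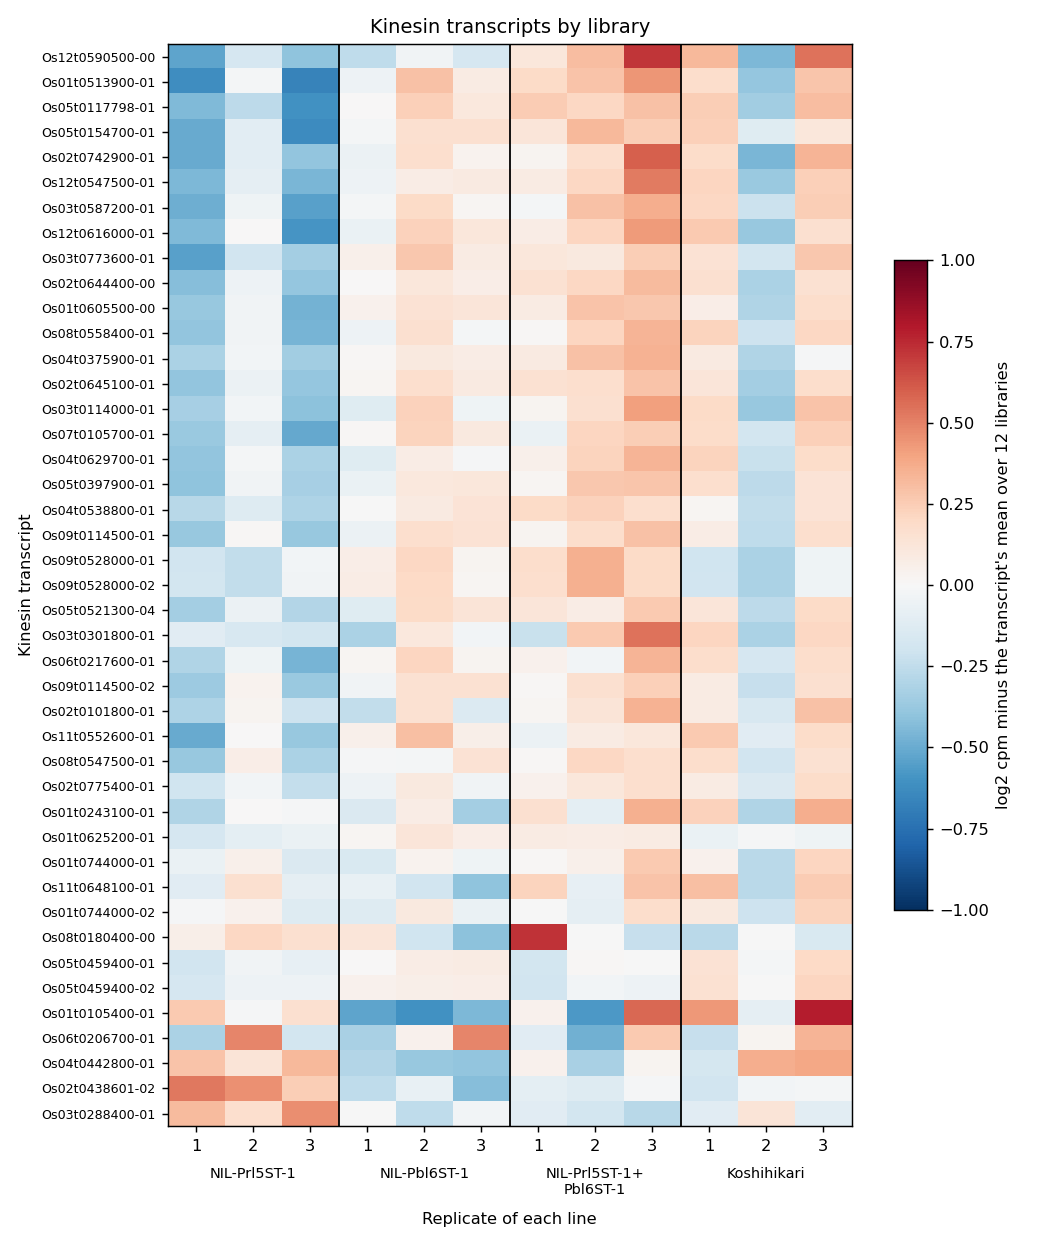
Log2 cpm of the 43 tested kinesin transcripts (rows, ordered by fold change of NIL-Prl5ST-1+Pbl6ST-1 against NIL-Prl5ST-1) in the 12 libraries (columns), each as the difference from the transcript's mean. Blue cells, lower values, gather in NIL-Prl5ST-1 replicates 1 and 3 and Koshihikari replicate 2, while a few kinesins show other patterns, such as Os01t0105400-01, which was low in all 3 NIL-Pbl6ST-1 libraries.

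The tubulin subunits followed the kinesins in part. The median for the 8 alpha-tubulins was 0.00, 0.07 and 0.08 in NIL-Prl5ST-1, 0.08, 0.05 and 0.08 in NIL-Pbl6ST-1, -0.05, 0.08 and -0.12 in NIL-Prl5ST-1+Pbl6ST-1, and -0.19, 0.02 and -0.15 in Koshihikari, so the libraries low in kinesins were not the low ones here. For the 12 beta-tubulins it was -0.19, 0.03 and -0.14 in NIL-Prl5ST-1, 0.13, 0.11 and 0.07 in NIL-Pbl6ST-1, -0.03, 0.13 and -0.10 in NIL-Prl5ST-1+Pbl6ST-1, and -0.01, 0.02 and -0.13 in Koshihikari. Beta-tubulins thus lay low in NIL-Prl5ST-1 replicates 1 and 3, as the kinesins did, but not in Koshihikari replicate 2. They also lay low in replicate 3 of Koshihikari and of NIL-Prl5ST-1+Pbl6ST-1, where the kinesins lay high. For the 23 other microtubule proteins, MAP65 proteins among them, it was -0.19, 0.00 and -0.22 in NIL-Prl5ST-1 and 0.06, -0.21 and 0.10 in Koshihikari, so these transcripts lay low in the same libraries as the kinesins. The first principal component of the 96 transcripts held 67% of their variance, and it separated NIL-Prl5ST-1 replicates 1 and 3 (2.86 and 2.91) from NIL-Prl5ST-1+Pbl6ST-1 (-0.487, -1.37 and -2.27), with Koshihikari replicate 2 at 1.82 and its other replicates at -1.13 and -1.41. NIL-Prl5ST-1 replicate 2 was at 0.509, and NIL-Pbl6ST-1 at 0.138, -1.16 and -0.41. The first component of all 31643 transcripts split the same libraries, so the split was not particular to the members. There NIL-Prl5ST-1 replicates 1 and 3 were at 48 and 51, Koshihikari replicate 2 at 22.5, and NIL-Prl5ST-1+Pbl6ST-1 at -16, -22 and -22.3.

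A list of 59 green leaf transcripts (photosystem, chlorophyll-binding and Rubisco small subunit proteins) moved with this pattern. Their summed level was 444, 349 and 442 cpm in NIL-Prl5ST-1, 260, 248 and 255 cpm in NIL-Pbl6ST-1, 304, 284 and 260 cpm in NIL-Prl5ST-1+Pbl6ST-1, and 301, 385 and 266 cpm in Koshihikari. The libraries low in kinesins were those with the highest leaf sums. The part of leaf tissue or of developmental stage in the kinesin values was not tested, and in whole panicles fewer cells of a type and less RNA per cell cannot be told apart.

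**Figure D2:**
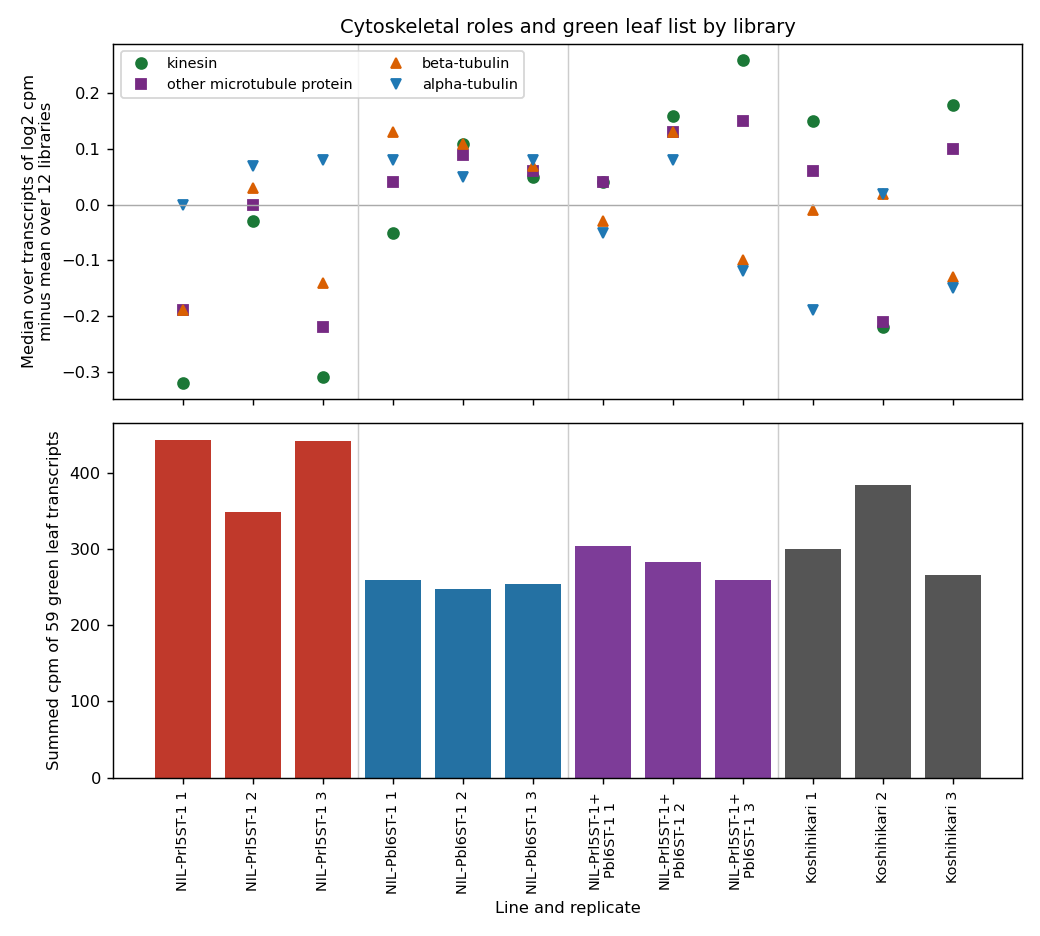
Above, the median over the transcripts of a role of log2 cpm minus the transcript's mean over the 12 libraries, for kinesins, other microtubule proteins, beta-tubulins and alpha-tubulins. Below, the summed cpm of 59 green leaf transcripts in the same libraries. The kinesin medians were lowest in NIL-Prl5ST-1 replicates 1 and 3 (-0.32 and -0.31) and Koshihikari replicate 2 (-0.22), where the leaf sums were 444, 442 and 385 cpm.

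The first comparison asked which members differed when the Pbl6 region was added to a line that already carried the Prl5 region. Kinesins were widely higher in NIL-Prl5ST-1+Pbl6ST-1 than in NIL-Prl5ST-1. Of the 43 kinesins, 26 rose and 2 fell, of 26 loci in all, at an adjusted p below 0.05 by the quasi-likelihood F-test of edgeR (Benjamini-Hochberg correction, 31643 transcripts). Over all members, 38 rose and 6 fell, or 45.8% of 96, beside 25.3% of all transcripts (13.2% higher and 12.1% lower). The median log2 fold change was 0.39 over the kinesins and 0.29 over all members, beside 0.00 over all transcripts. Of the other microtubule proteins 9 of 23 rose, of 7 loci, and none fell (median 0.30). These 9 include Os09t0114500-03, a transcript of a locus whose other transcripts are counted as kinesins. Of the 20 alpha- and beta-tubulins 1 rose and 3 fell.

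Os12t0590500-00, a transcript with a kinesin motor domain, had the largest rise among the called kinesins. It was at 40.0, 45.9 and 60.6 cpm in NIL-Prl5ST-1+Pbl6ST-1, against 25.7, 32.9 and 28.0 cpm in NIL-Prl5ST-1. The lines did not overlap, as for 41.5% of all transcripts in this comparison, and the log2 fold change was 0.76 ± 0.14 (SE, 3 libraries per line; adjusted p = 0.00165, edgeR). Os01t0513900-01, similar to a kinesin heavy chain, was at 72.5, 77.0 and 86.0 cpm in NIL-Prl5ST-1+Pbl6ST-1, against 41.2, 62.5 and 39.8 cpm in NIL-Prl5ST-1, a log2 fold change of 0.71 ± 0.14 (adjusted p = 0.00307, edgeR). Here too every library of the double line lay above every library of the single line, with NIL-Prl5ST-1 replicate 2 the nearest to it.

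The kinesin with the smallest adjusted p in this comparison was Os05t0117798-01, described by its motor region. It averaged 24.3 ± 0.774 cpm in NIL-Prl5ST-1+Pbl6ST-1 and 15.1 ± 1.81 cpm in NIL-Prl5ST-1 (SD, n = 3 libraries each), and its log2 fold change of 0.68 ± 0.11 had an adjusted p of 0.000774 by edgeR. The next kinesins by fold change were Os05t0154700-01, Os02t0742900-01, Os12t0547500-01, Os03t0587200-01 and Os12t0616000-01, with log2 values of 0.63, 0.60, 0.60, 0.57 and 0.56 and adjusted p-values by edgeR between 0.00255 and 0.0136. The calls of Os02t0742900-01 and Os12t0616000-01 were lost without NIL-Prl5ST-1+Pbl6ST-1 replicate 3, and that of Os02t0742900-01 also without NIL-Prl5ST-1 replicate 1. Os12t0616000-01 is similar to KIFC3, a motor that in animals moves towards the minus end of microtubules. Os08t0558400-01, the kinesin with the most counts, averaged 160 ± 17.9 cpm in NIL-Prl5ST-1+Pbl6ST-1 and 114 ± 18.6 cpm in NIL-Prl5ST-1 (SD, n = 3 libraries each), a log2 fold change of 0.48 ± 0.12 (adjusted p = 0.00984, edgeR). This call was lost without NIL-Prl5ST-1 replicate 1 or 3 or NIL-Prl5ST-1+Pbl6ST-1 replicate 3.

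Os09g0114500 encodes a kinesin-4 that its annotation links to transcription regulation, the cell cycle, the cell wall and cell elongation by regulating gibberellin biosynthesis. Its transcript Os09t0114500-01 was at 51.1, 56.4 and 61.4 cpm in NIL-Prl5ST-1+Pbl6ST-1, against 38.5, 50.5 and 38.4 cpm in NIL-Prl5ST-1. The log2 fold change was 0.40 ± 0.12 (adjusted p = 0.0203, edgeR), and the other 2 listed transcripts of this locus rose by 0.36 and 0.35. These 3 calls held in 2, 2 and 1 of the 6 fits that left out a library. Against Koshihikari, at 52.7, 41.9 and 56.2 cpm, neither line passed the test. The log2 fold changes of Os09t0114500-01 were 0.16 ± 0.12 in NIL-Prl5ST-1+Pbl6ST-1 and -0.24 ± 0.14 in NIL-Prl5ST-1 (adjusted p = 0.603 and 0.298, edgeR).

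Proteins that bundle or organise microtubules rose beside the kinesins. Os01t0816400-01, similar to a microtubule organization protein, was at 8.26, 11.1 and 12.6 cpm in NIL-Prl5ST-1+Pbl6ST-1, against 5.24, 7.24 and 5.82 cpm in NIL-Prl5ST-1. Its log2 fold change of 0.80 ± 0.17 (adjusted p = 0.00363, edgeR) was the largest among the called members, and the other transcript of the locus, similar to the tobacco bundling protein TMBP200, rose by 0.61. A MAP65 transcript, Os01t0685900-01, was at 130, 153 and 160 cpm in NIL-Prl5ST-1+Pbl6ST-1, against 86.1, 128 and 87.2 cpm in NIL-Prl5ST-1. The lines did not overlap by a margin of only a few cpm, because of NIL-Prl5ST-1 replicate 2, and the log2 fold change was 0.55 ± 0.14 (adjusted p = 0.00984, edgeR), a call that was lost without NIL-Prl5ST-1 replicate 1 or NIL-Prl5ST-1+Pbl6ST-1 replicate 3. An EB1-like protein, Os10t0498900-01, and a gamma-tubulin complex protein, Os09t0446200-01, rose by 0.32 ± 0.11 and 0.37 ± 0.12 on the log2 scale (adjusted p = 0.0470 and 0.0347, edgeR), and each of these calls held only without NIL-Prl5ST-1 replicate 2 among the 6 fits that left out a library.

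Not every member of these families rose. The most abundant MAP65 transcript by counts, Os06t0308300-01, averaged 367 ± 3.62 cpm in NIL-Prl5ST-1+Pbl6ST-1 and 303 ± 24.8 cpm in NIL-Prl5ST-1 (SD, n = 3 libraries each) and did not pass the test (log2 fold change 0.28, adjusted p = 0.0551, edgeR). Another transcript of this locus, Os06t0308300-02, did pass, with a log2 fold change of 0.35 ± 0.098 (adjusted p = 0.0163, edgeR; 3 of the 6 fits that left out a library), and the third, Os06t0308300-03, did not (0.27). The 2 transcripts similar to TORTIFOLIA1, which in Arabidopsis binds cortical microtubules and keeps organs from twisting, had log2 values of 0.09 and 0.12. Gamma-tubulin itself, Os05t0156600-01, was at 79.9, 87.5 and 88.4 cpm in NIL-Prl5ST-1+Pbl6ST-1, against 69.7, 86.0 and 71.3 cpm in NIL-Prl5ST-1. These libraries overlapped, and the log2 fold change of 0.17 ± 0.10 did not pass (adjusted p = 0.239, edgeR).

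The 6 members that fell were 2 kinesins, 2 beta-tubulins, 1 alpha-tubulin and 1 folding cofactor. The kinesin-like Os03t0288400-01 was at 22.9, 21.8 and 20.5 cpm in NIL-Prl5ST-1+Pbl6ST-1, against 30.9, 27.8 and 34.3 cpm in NIL-Prl5ST-1, a log2 fold change of -0.51 ± 0.11 (adjusted p = 0.00345, edgeR). Beta-2 tubulin, Os01t0805900-01, was at 176, 201 and 170 cpm in NIL-Prl5ST-1+Pbl6ST-1, against 266, 238 and 271 cpm in NIL-Prl5ST-1, a log2 fold change of -0.50 ± 0.10 (adjusted p = 0.00339, edgeR). In both transcripts the lines were well separated, and Koshihikari lay mostly between them or near the double line, at 22.9, 27.1 and 23.1 cpm for the kinesin and 187, 235 and 186 cpm for beta-2 tubulin. Folding cofactor B, Os04t0692100-01, which binds alpha-tubulin before dimers form, was at 28.2, 31.4 and 26.7 cpm in NIL-Prl5ST-1+Pbl6ST-1, against 42.6, 33.6 and 40.1 cpm in NIL-Prl5ST-1 (log2 fold change -0.43 ± 0.11, adjusted p = 0.0112, edgeR), and passed in 4 of the 6 fits that left out a library. The others were the kinesin Os02t0438601-02 (-0.49), the alpha-tubulin transcript Os11t0247300-02 (-0.35) and the beta-tubulin Os02t0834300-01 (-0.34). Their calls held in 3, 2 and 3 of the 6 fits that left out a library, and those of Os02t0438601-02 and Os11t0247300-02 were lost when counts were summed to loci. Another folding cofactor, Os10t0508500-00, moved the opposite way, with a log2 fold change of 0.48 ± 0.13 (adjusted p = 0.0150, edgeR) that held in 2 of those 6 fits.

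The most abundant tubulins by counts did not pass. The alpha-tubulin transcript Os11t0247300-01 averaged 3000 ± 354 cpm in NIL-Prl5ST-1+Pbl6ST-1 and 3500 ± 322 cpm in NIL-Prl5ST-1 (SD, n = 3 libraries each). Beta-5 tubulin, Os01t0282800-02, averaged 668 ± 52.2 cpm in NIL-Prl5ST-1+Pbl6ST-1 and 523 ± 92.3 cpm in NIL-Prl5ST-1. Their log2 fold changes of -0.23 and 0.35 had opposite signs (adjusted p = 0.220 and 0.0523, edgeR). Of the 8 alpha-tubulins 7 had negative and 1 had positive fold changes, and of the 12 beta-tubulins 3 had negative and 9 had positive ones.

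**Figure D3:**
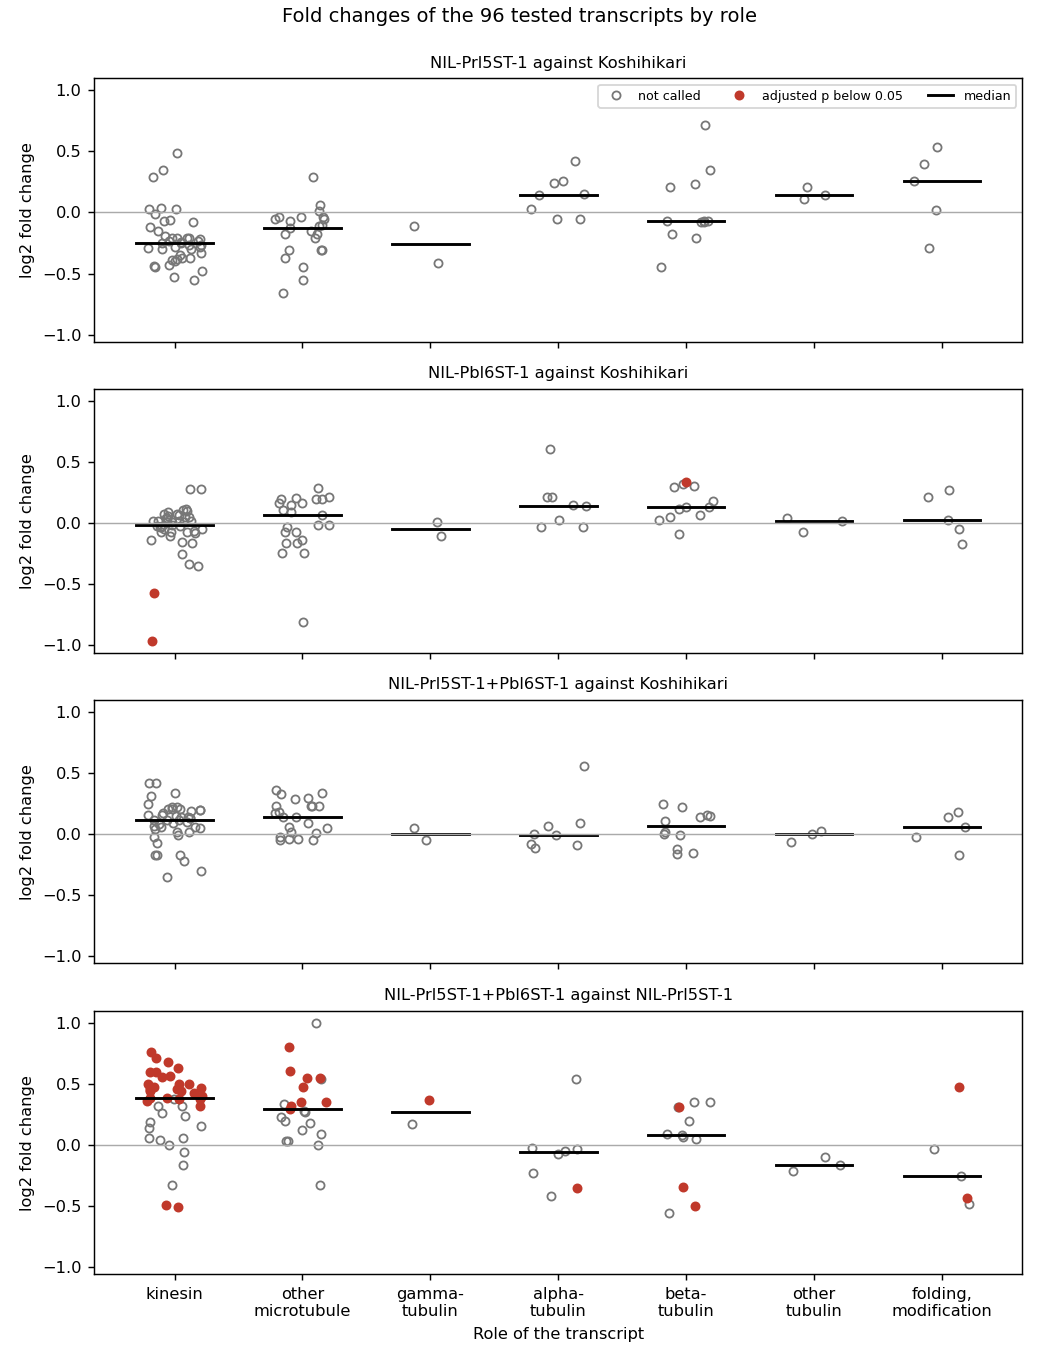
Log2 fold change of each of the 96 tested transcripts, by role, in 4 comparisons. Filled points passed an adjusted p of 0.05 by edgeR, open points did not, and lines mark medians. In NIL-Prl5ST-1+Pbl6ST-1 against NIL-Prl5ST-1 the kinesin median was 0.39 with 26 kinesins higher and 2 lower, and in NIL-Prl5ST-1 against Koshihikari it was -0.25 with none called.

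The number of members called in this comparison depended on single libraries. It was 17 without NIL-Prl5ST-1 replicate 1, 28 without NIL-Prl5ST-1 replicate 3, 29 without NIL-Prl5ST-1+Pbl6ST-1 replicate 2 and 21 without NIL-Prl5ST-1+Pbl6ST-1 replicate 3, while the kinesin median stayed between 0.33 and 0.49 over the 6 fits that left out a library. Over all 31643 transcripts the same 4 fits called 3883, 4185, 5718 and 5053, beside 8021 with every library. In these 4 fits calls thus dropped in the whole table, and the called share of members stayed larger than that of all transcripts. Without NIL-Prl5ST-1 replicate 2 calls grew instead, to 59 members and 11158 of all transcripts. Without NIL-Prl5ST-1+Pbl6ST-1 replicate 1 they were 36 and 5959. Of the 44 members called, 16 passed in each of the 6 fits, 13 of them kinesins. This was not counted over all transcripts, so the values do not show whether member calls held more often than others. Only 8 of the 44 called members changed by at least 1.5-fold.

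Other cytoskeletal and cell-cycle transcripts were described from word lists in the same comparison, where 25.3% of all transcripts were called. Of 112 actin cytoskeleton transcripts 36 rose and 10 fell (41.1%, median log2 fold change 0.18), and of 37 cellulose synthase transcripts 18 rose and none fell (48.6%, median 0.39). Mitosis transcripts (kinetochore, spindle, condensin and anaphase proteins) gave 4 higher and 2 lower of 27 (22.2%), near the share of all transcripts, and cyclins and their kinases 10 higher and 7 lower of 113, a share below it, with medians of 0.14 and 0.02. Core histones, which are made during DNA replication, gave 0 higher and 3 lower of 49 (6.12%, median -0.13). No difference between lists was tested.

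The effect of the Prl5 region alone was given by NIL-Prl5ST-1 against Koshihikari. No member passed the test, beside 0.743% of all transcripts by edgeR (0.382% higher and 0.36% lower). At an unadjusted p below 0.05 there were 23 members of 96, near the 24.9% of all transcripts. DESeq2 called 5 members, beside 2007 of 31643 transcripts. The signs were uneven, with 70 members of 96 lower and a median log2 fold change of -0.14, against -0.01 over all transcripts. Among kinesins 37 of 43 were lower and the median was -0.25.

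These values turned on Koshihikari replicate 2 and NIL-Prl5ST-1 replicate 2. Without Koshihikari replicate 2, edgeR called 35 members (8 higher and 27 lower), of which 22 were lower kinesins. Without NIL-Prl5ST-1 replicate 2 it called 15, and without both it called 62, 13 higher and 49 lower, with 32 kinesins lower and 2 higher. Over all 31643 transcripts the calls without these libraries were 6574, 3568 and 11646, beside 235 with every library. Calls thus grew in the whole table, and in each of these fits the called share of members was larger than that of all transcripts. No reason other than the values gives grounds to leave them out, and the count with all 6 libraries is 0.

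The kinesin Os05t0117798-01 was an example. It lay between 13.4 and 17.0 cpm in NIL-Prl5ST-1, against 24.2 and 25.2 cpm in Koshihikari replicates 1 and 3, while Koshihikari replicate 2 fell within the range of NIL-Prl5ST-1 and brought the mean of its line to 21.8 ± 5.02 cpm (SD, n = 3 libraries). Its log2 fold change was -0.53 ± 0.16 (adjusted p = 0.0987, edgeR). Members with positive values in this comparison included beta-2 tubulin (0.35 ± 0.12), the kinesin Os03t0288400-01 (0.35 ± 0.12) and tubulin cofactor A, Os02t0816500-01, which binds beta-tubulin (0.40), with adjusted p-values by edgeR of 0.118, 0.114 and 0.0946.

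The effect of the Pbl6 region alone, NIL-Pbl6ST-1 against Koshihikari, was small for these families. Of 96 members 1 rose and 2 fell, or 3.12%, beside 8.49% of all transcripts by edgeR (3.07% higher and 5.42% lower). The medians were -0.01 over the kinesins and 0.13 over the beta-tubulins, of which 11 of 12 had positive values. Over all transcripts 15643 of 31643 had positive values.

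The kinesin heavy chain-like Os01t0105400-01 had the largest fold change of the 3. It lay between 5.71 and 6.34 cpm in the 3 libraries of NIL-Pbl6ST-1, against 11.7, 8.14 and 14.9 cpm in Koshihikari. The lines did not overlap, as for 29.8% of all transcripts here, and the log2 fold change was -0.96 ± 0.19 (adjusted p = 0.00921, edgeR). It passed in each of the 6 fits that left out a library, with log2 values between -1.16 and -0.73. In NIL-Prl5ST-1+Pbl6ST-1 the same transcript spread from 5.82 to 12.9 cpm, and in NIL-Prl5ST-1 from 8.62 to 10.4 cpm.

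Os04t0442800-01 is similar to phragmoplast-associated kinesin-related protein 1, a motor that in Arabidopsis sits at the growing edge of the new cell wall. It was at 7.54, 7.12 and 7.04 cpm in NIL-Pbl6ST-1, against 8.21, 11.9 and 12.1 cpm in Koshihikari. The log2 fold change was -0.57 ± 0.15 (adjusted p = 0.0407, edgeR), and the call held in 2 of the 6 fits that left out a library. Beta-1 tubulin, Os03t0105600-01, was at 484, 448 and 437 cpm in NIL-Pbl6ST-1, against 358, 387 and 335 cpm in Koshihikari (log2 fold change 0.34 ± 0.094, adjusted p = 0.0443, edgeR). This call held in 1 of the 6 and was lost with all 12 libraries in 1 fit. The number of members called was 17 without Koshihikari replicate 2, with 8 of the 20 alpha- and beta-tubulins higher, and 1 without Koshihikari replicate 3 or any single replicate of NIL-Pbl6ST-1. Over all transcripts 7326 of 31643 were called without Koshihikari replicate 2, a larger share than the 17 of 96 members. Beta-5 tubulin lay at the threshold, at 750, 757 and 743 cpm in NIL-Pbl6ST-1, against 620, 615 and 580 cpm in Koshihikari (log2 fold change 0.31 ± 0.088, adjusted p = 0.0510, edgeR).

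Of 49 core histone transcripts 12 rose and none fell in this comparison (24.5%, median log2 fold change 0.39), beside 3.07% of all transcripts higher and 5.42% lower. Their summed level was 30750, 26220 and 28710 cpm in NIL-Pbl6ST-1, against 20630, 26350 and 19210 cpm in Koshihikari, where replicate 2 lay within the range of NIL-Pbl6ST-1.

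**Figure D4:**
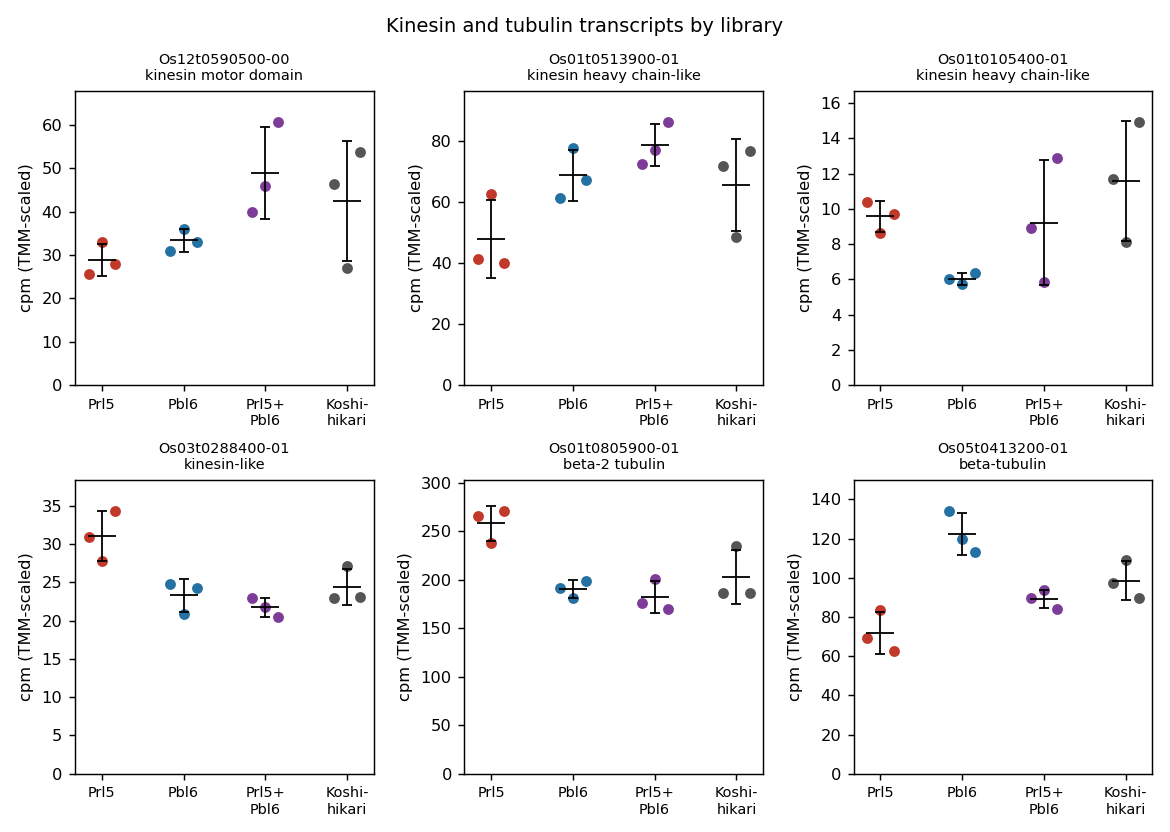
Levels of 6 kinesin and tubulin transcripts in cpm after TMM scaling, in NIL-Prl5ST-1 (Prl5), NIL-Pbl6ST-1 (Pbl6), NIL-Prl5ST-1+Pbl6ST-1 (Prl5+Pbl6) and Koshihikari. Points are libraries, and bars are the mean and SD of 3 libraries. Os01t0105400-01 was lowest in NIL-Pbl6ST-1 (5.71 to 6.34 cpm), beta-2 tubulin (Os01t0805900-01) highest in NIL-Prl5ST-1 (238 to 271 cpm), and the beta-tubulin Os05t0413200-01 highest in NIL-Pbl6ST-1 (113 to 134 cpm).

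In the line with both regions against Koshihikari, no member passed the test, beside 2.16% of all transcripts by edgeR (0.863% higher and 1.3% lower). At an unadjusted p below 0.05 there were 10 of 96 members, beside 13.8% of all transcripts. DESeq2 called 2 members, beside 961 of 31643 transcripts. Without Koshihikari replicate 3, edgeR called 2 members, beside 566 of 31643 transcripts, and without any other single library it called 0 members. The median log2 fold change was 0.09 over the members and 0.12 over the kinesins. The smallest adjusted p among the kinesins belonged to the locus Os09g0528000, where Os09t0528000-01 was at 56.3, 63.8 and 57.0 cpm in NIL-Prl5ST-1+Pbl6ST-1, against 43.6, 40.1 and 48.5 cpm in Koshihikari. These libraries did not overlap, as for 20.2% of all transcripts, and the log2 fold change was 0.42 ± 0.10 (adjusted p = 0.0559, edgeR). Unlike most kinesins, this transcript was about level between NIL-Prl5ST-1 and Koshihikari, at 43.8, 42.2 and 48.9 cpm in NIL-Prl5ST-1. It was singled out after its values were seen.

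Adding the Prl5 region to a line with the Pbl6 region, NIL-Prl5ST-1+Pbl6ST-1 against NIL-Pbl6ST-1, gave 1 member higher and 1 lower, or 2.08%, beside 0.777% of all transcripts by edgeR (0.382% higher and 0.395% lower). The kinesin Os12t0590500-00 was at 40.0, 45.9 and 60.6 cpm in NIL-Prl5ST-1+Pbl6ST-1, against 31.0, 36.1 and 33.0 cpm in NIL-Pbl6ST-1 (log2 fold change 0.55 ± 0.12, adjusted p = 0.0437, edgeR). The lines did not overlap, as for 20.2% of all transcripts. The call was lost without any 1 of NIL-Pbl6ST-1 replicates 1, 2 and 3 or NIL-Prl5ST-1+Pbl6ST-1 replicate 3, with an adjusted p of up to 0.226 by edgeR, and also with all 12 libraries in 1 fit or counts summed to loci. Of the 43 kinesins 38 had positive values, with a median of 0.14, beside 16251 of 31643 transcripts and a median of 0.01. Most kinesins shared 1 pattern over the libraries, so their signs are not independent.

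The lower member was the beta-tubulin Os05t0413200-01. It was at 89.6, 93.6 and 84.3 cpm in NIL-Prl5ST-1+Pbl6ST-1, against 134, 120 and 113 cpm in NIL-Pbl6ST-1 (log2 fold change -0.46 ± 0.082, adjusted p = 0.0116, edgeR). The call was lost without NIL-Pbl6ST-1 replicate 1, where the adjusted p was 0.105 by edgeR, and with all 12 libraries in 1 fit. In the lines without the Pbl6 region it was at 69.3, 83.8 and 62.8 cpm in NIL-Prl5ST-1, against 97.2, 109 and 89.6 cpm in Koshihikari. These libraries did not overlap, as for 24.4% of all transcripts between both lines, and the log2 fold change of -0.45 ± 0.13 had an adjusted p of 0.0833 by edgeR. This gene lies on chromosome 5, and its locus number falls between those of Os05t0390932-01 and Os05t0439200-01. Both of these were at 0 counts in every NIL-Prl5ST-1 library and had 285 to 1188 counts in the libraries of NIL-Pbl6ST-1 and Koshihikari. In NIL-Prl5ST-1+Pbl6ST-1, Os05t0439200-01 was at 0 counts throughout, but Os05t0390932-01 had 0, 62 and 32 counts. Of the transcripts checked, Os05t0414400-02 has the locus number nearest to that of the beta-tubulin. It was at 0 counts in every library of NIL-Prl5ST-1 and NIL-Prl5ST-1+Pbl6ST-1, against 118 to 370 counts in those of NIL-Pbl6ST-1 and Koshihikari. A part of the introduced segment in the level of this beta-tubulin was not tested. A MAP65 transcript and a kinesin whose locus numbers fall in the same stretch, Os05t0409400-01 and Os05t0397900-01, had log2 values of 0.03 and 0.14 in the same comparison.

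The interaction asked whether the effect of the Prl5 region differed with the Pbl6 region present. It passed for 1 of 96 members (1.04%), beside 3.93% of all transcripts (2.08% higher and 1.85% lower), in an edgeR fit of all 12 libraries. Os12t0590500-00 had a log2 fold change for the Prl5 region of 0.55 with the Pbl6 region and -0.55 without it, a difference of 1.11 ± 0.27 (adjusted p = 0.0440, edgeR). Koshihikari, at 46.4, 27.1 and 53.8 cpm, had the widest spread of the 4 lines. The interaction was positive for 40 of 43 kinesins, with a median of 0.39, against 0.03 over all transcripts, and negative for 7 of 8 alpha-tubulins, with a median of -0.28. The number of members that passed was 40 without Koshihikari replicate 2, 30 without NIL-Prl5ST-1 replicate 2 and 54 without both. Over all 31643 transcripts these fits called 7579, 5233 and 10143, beside 1243 with every library. Here too calls grew in the whole table, and the called share of members was larger than that of all transcripts. The number of members that passed was 0 without Koshihikari replicate 1 or 3 or NIL-Prl5ST-1 replicate 1 or 3. It was also 0 without any single NIL-Pbl6ST-1 replicate or NIL-Prl5ST-1+Pbl6ST-1 replicate 3, and 2 without NIL-Prl5ST-1+Pbl6ST-1 replicate 2.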

How the data were processed

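Total RNA of whole young panicles was sequenced by the authors, and reads per transcript were deposited as raw counts, without normalization. The submitters' processing notes name bcl2fastq, Bowtie and the build IRGSP-1.0. Versions, the use of strand and how reads matching more than 1 transcript were handled are not given in the sources used here. Every sample column was used.

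The counts were scaled by TMM and tested with edgeR 4.0.16 (glmQLFit and glmQLFTest, R 4.3.3), two-sided, on the 6 libraries of each of 5 comparisons, and on all 12 libraries for the interaction, since the study names edgeR for normalization and no test. Transcripts were kept by filterByExpr (minimum count 10, total 15, smallest group 3), which left 31643. The Benjamini-Hochberg correction covered all of them, with a threshold of 0.05 on the adjusted p. Fold changes are edgeR's fitted log2 values with a prior count of 0.125, and standard errors are the fold change divided by the square root of F. The test was run on simulated data first, for NIL-Pbl6ST-1 against Koshihikari and for the interaction only. In each, 200 of 31643 transcripts were made to differ. For NIL-Pbl6ST-1 against Koshihikari 98.5% of them were recovered, and 22 of 219 calls were false. For the interaction 84.0% were recovered, and 11 of 179 calls were false. The other comparisons, NIL-Prl5ST-1+Pbl6ST-1 against NIL-Prl5ST-1 among them, were not tested in this way. A count of 3 was worth 0.097 to 0.192 cpm, and such limits cover counting error only. In no line did a pair of libraries differ by less than the counting noise.

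Roles were read from words of the annotation, and 2 transcripts that the words missed (a chaperone and an alpha-tubulin) were assigned by hand after the files were seen. Transcripts described as microtubule motors without the word kinesin stayed among the other microtubule proteins. These were Os09t0114500-03, Os02t0229600-00 and Os02t0733001-00. The members, the word lists and the tests were chosen with earlier results of these data known. Transcripts were named by rule as up to 10 per direction among the called, 1 per locus, with a mean of at least 50 counts in the higher line, plus the transcript with the most counts in each role. Others are named as examples chosen after their values were seen, among them Os09g0114500, Os09t0446200-01, Os10t0498900-01, Os10t0508500-00 and members of the Prl5 segment. Alternatives were DESeq2's size factors in edgeR, DESeq2 1.42.0, no filter, 1 fit of all 12 libraries, sums of counts by locus, a block for the replicate number, a change of at least 1.5-fold and each library left out. Leaving out both replicates 2 was added after the data were seen.

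Members did not match the gene table used for names and sequences, so no sequence is shown, and levels were compared only within a transcript, since no lengths were used.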

Additional observations from a re-analysis of the deposited data

Results flagged for a closer look

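The kinesin transcript Os12t0590500-00 was singled out because the effect of the Prl5 region differed with the Pbl6 region, by a test of the difference itself. The interaction was 1.11 ± 0.27 on the log2 scale (adjusted p = 0.0440, edgeR). It passed in 4 of the 12 fits that left out a library, where the value ranged between 0.89 and 1.34. Groups of 3 libraries were too small for a search for single outlying libraries.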

How the results depend on the processing

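With 3 libraries per line, each count of called members moved with single libraries. Leaving out each library in turn gave between 0 and 35 called members in NIL-Prl5ST-1 against Koshihikari (0 with all libraries), 1 to 17 in NIL-Pbl6ST-1 against Koshihikari (3), 0 to 2 in NIL-Prl5ST-1+Pbl6ST-1 against Koshihikari (0), 17 to 59 against NIL-Prl5ST-1 (44), 0 to 3 against NIL-Pbl6ST-1 (2) and 0 to 40 for the interaction (1). Over all 31643 transcripts the same fits, in this order, called 63 to 6574, 1067 to 7326, 270 to 837, 3883 to 11158, 95 to 750 and 7 to 7579. With both replicates 2 of Koshihikari and NIL-Prl5ST-1 left out, an alternative chosen after the data were seen, 62 members passed in NIL-Prl5ST-1 against Koshihikari and 54 for the interaction. Over all 31643 transcripts 11646 and 10143 passed in these fits.

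Against Koshihikari, DESeq2 called 5 members in NIL-Prl5ST-1, 5 in NIL-Pbl6ST-1 and 2 in NIL-Prl5ST-1+Pbl6ST-1, and it called 13 for the interaction. Over all 31643 transcripts DESeq2 called 2007, 2735, 961 and 3554 here, beside 235, 2686, 685 and 1243 in the main fits. Without a filter the members called were 3 in NIL-Prl5ST-1 and 2 in NIL-Prl5ST-1+Pbl6ST-1 against Koshihikari, 4 in NIL-Prl5ST-1+Pbl6ST-1 against NIL-Pbl6ST-1 and 8 for the interaction. Over all 40722 transcripts these fits called 1716, 914, 959 and 2877. With all 12 libraries in 1 fit the members called were 11 in NIL-Prl5ST-1 and 2 in NIL-Prl5ST-1+Pbl6ST-1 against Koshihikari, and 0 in NIL-Prl5ST-1+Pbl6ST-1 against NIL-Pbl6ST-1. Over all 31643 transcripts this fit called 3635, 1066 and 104. Summed to loci, 1 member passed in the last comparison, beside 137 of 25645 loci. A change of at least 1.5-fold left 1 member in NIL-Pbl6ST-1 against Koshihikari, 8 in NIL-Prl5ST-1+Pbl6ST-1 against NIL-Prl5ST-1 and 0 against NIL-Pbl6ST-1. This fold rule was not applied to all transcripts. The cause of these shifts was not tested, except that the fold rule removes smaller changes by its construction.

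The labels do not say whether replicate numbers pair the libraries. Same-numbered libraries deviated together in some comparisons and apart in others (correlations from -0.422 to 0.489). With 3 libraries per line these values cannot decide whether a pairing existed. With the replicate number as a block, 1 member passed in NIL-Pbl6ST-1 against Koshihikari, 2 in NIL-Prl5ST-1+Pbl6ST-1 against Koshihikari, 50 against NIL-Prl5ST-1 and 0 for the interaction. Over all 31643 transcripts 1750, 1292, 8668 and 142 passed in these fits. Of 823 alternative values for the 64 fold changes of named transcripts, 52 lost and 42 gained the threshold, 729 stayed on their side of it, and no called fold change changed sign.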
